A study of Mus musculus with 6 samples.

Results

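Glycolysis was followed here through 10 genes: the glucose transporter gene Slc2a1 and the enzyme genes Hk2, Pfkl, Pfkp, Aldoa, Tpi1, Pgk1, Pgam1, Eno1 and Ldha. Every probe of the array whose gene symbol in the platform annotation was one of these names was taken. That gave 11 probes for 8 genes, out of 46632 probes in all, and Pgam1 and Eno1 were not analysed here. Of the 11 probes, 8 passed the detection filter, 1 for each of the 8 genes, among 20959 probes tested for 10099 named genes. The RNA was cut out by laser from the lens ectoderm of mice at day 9.5 of development, on a mixed C57BL6 and FVB background. The wild-type group (WT) and the group lacking type I BMP receptors in the lens placode (BMPR KO, titled ALK23 KO, here KO) had 3 arrays each. The labels do not name the Cre driver or the deleted exons, the tissue label reads prospective lens or retina, and the series text says that RNA was pooled, so the p-values measure a spread between samples that may be partly technical.

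Glycolysis splits glucose into pyruvate and yields ATP without oxygen. Glucose enters through a transporter, is trapped by hexokinase, is committed to the pathway by phosphofructokinase, and ends as pyruvate, which lactate dehydrogenase can turn into lactate. Most steps are run by a family of isozymes encoded by separate genes and used in different tissues. Early embryos and the lens are both known for a strong use of glycolysis, and many of the genes are targets of the hypoxia-inducible transcription factor HIF and of MYC.

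No difference between the genotypes was detected for the 8 measured genes. Of the 8, 0 passed an adjusted p of 0.05 in limma, against 0% of all 20959 tested probes, and their WT and KO arrays overlapped in 8 of 8 genes, while 9.82% of all tested probes did not overlap (5.38% with KO higher, 4.44% with KO lower). At an unadjusted p below 0.05 there were 0 of 8, against 4.49% of all tested probes (2.89% higher and 1.6% lower in KO). The KO mean was higher for 6 genes and lower for 2, while 50.9% of all tested probes had the higher mean in KO. The median difference, KO minus WT on the log2 scale, was 0.06 over the 8 genes and 0.01 over all tested probes. For 6 of the 8 genes the whole 95% interval was narrower than 2-fold up or down, as it was for 40.7% of all tested probes. In bulk tissue, fewer cells that express a gene and less RNA per cell cannot be told apart.

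The start regions of 4 of these genes are shown, in which ACGTG, a form of the binding core of HIF, is spelled out. It is also spelled out in windows of Aldoa and Pgam1, which are not shown. Other forms of the core were not searched. The motif search and the choice of these 4 were made after the values were seen. Each window runs from 250 bases before to 50 bases after a RefSeq gene start in GRCm38.p6, 5′ to 3′ on the strand of the gene, with ACGTG or its reverse complement CACGT in capitals.
Slc2a1 promoter, chr4:119108495-119108794, plus strand: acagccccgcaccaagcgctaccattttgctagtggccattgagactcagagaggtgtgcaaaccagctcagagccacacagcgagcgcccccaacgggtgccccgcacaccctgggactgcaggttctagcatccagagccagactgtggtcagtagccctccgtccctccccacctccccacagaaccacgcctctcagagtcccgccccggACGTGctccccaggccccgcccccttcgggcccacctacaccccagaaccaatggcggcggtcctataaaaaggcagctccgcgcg
Hk2 promoter, chr6:82774405-82774704, minus strand: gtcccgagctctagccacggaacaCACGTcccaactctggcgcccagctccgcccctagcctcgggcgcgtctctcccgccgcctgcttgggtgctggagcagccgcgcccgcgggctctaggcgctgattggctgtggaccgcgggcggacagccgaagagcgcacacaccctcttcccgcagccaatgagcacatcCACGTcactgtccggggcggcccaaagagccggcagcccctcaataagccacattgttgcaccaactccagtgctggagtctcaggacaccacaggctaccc
Pgk1 promoter, chrX:106186850-106187149, plus strand: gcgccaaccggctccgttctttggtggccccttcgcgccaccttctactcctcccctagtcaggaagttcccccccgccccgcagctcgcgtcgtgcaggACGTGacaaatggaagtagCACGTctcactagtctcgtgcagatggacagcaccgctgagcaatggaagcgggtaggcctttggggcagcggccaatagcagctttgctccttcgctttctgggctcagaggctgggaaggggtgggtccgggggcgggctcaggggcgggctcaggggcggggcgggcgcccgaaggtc
Ldha promoter, chr7:46845554-46845853, plus strand: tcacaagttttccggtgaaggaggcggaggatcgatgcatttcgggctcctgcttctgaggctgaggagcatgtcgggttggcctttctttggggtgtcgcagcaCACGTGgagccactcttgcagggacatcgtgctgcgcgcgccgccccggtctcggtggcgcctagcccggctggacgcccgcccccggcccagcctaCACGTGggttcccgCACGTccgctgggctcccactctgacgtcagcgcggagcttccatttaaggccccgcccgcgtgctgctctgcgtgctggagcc
On both strands together the motif matched 1 time in the Slc2a1 window, 2 times in that of Hk2, 2 times in that of Pgk1 and 5 times in that of Ldha. The sequence CACGTG, the E-box read by MYC among other factors, holds ACGTG on both strands and so counts 2 times wherever it stands, as it does in the Ldha window. A second annotated start of Ldha had 0 matches. All 10 genes had a window in the RefSeq table, and 6 had a match in at least 1 window, against 21.8% of the 27025 genes in the table. By window the numbers were 7 of 15, against 19.6% of 32851 windows. Windows 1 and 2 of Aldoa, both among the 7, overlap and hold the same match. The motif contains CG, and the windows were not compared with others of like base content, so no enrichment is read from these numbers. A match is only these letters, and binding was not measured.

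Glucose entry was read from Slc2a1, which encodes GLUT1, the main glucose transporter of embryonic and many epithelial cells. The normalized log2 intensity of its probe, ILMN_1258159, was 11.22, 11.79 and 11.49 on WT 1 to WT 3 and 11.36, 11.79 and 11.61 on KO 1 to KO 3. The lowest array was WT 1, the highest was WT 2, and the KO arrays fell between them. WT averaged 11.50 ± 0.29 and KO 11.59 ± 0.21 (SD, n = 3 each). The difference was 0.09 (interval -0.31 to 0.48, limma adjusted p = 0.992), so a rise of the signal above 1.39-fold and a fall beyond 1.24-fold both lay outside the interval. Its sign turned without WT 1, to -0.06, and without KO 2, to -0.01.

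Hk2 encodes hexokinase 2, which phosphorylates glucose and so keeps it in the cell. Its probe, ILMN_1239397, measured 12.11, 11.62 and 12.01 on the WT arrays, then 12.06, 11.87 and 11.93 on the KO arrays. WT 2 alone was low, and the other 5 arrays lay close together. The means were 11.91 ± 0.26 in WT and 11.95 ± 0.09 in KO (SD, n = 3 each), and the difference was 0.04 (interval -0.28 to 0.37, limma adjusted p = 0.993). Without WT 2 it was -0.10, and without KO 1 it was -0.01.

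Phosphofructokinase, the committing step, is built from liver-type, muscle-type and platelet-type subunits. Pfkl, the liver type, was at 9.95, 10.01 and 9.69 on the WT arrays, against 9.92, 9.59 and 10.17 in KO on ILMN_1236539. The KO arrays lay on both sides of the WT arrays, and the difference was 0.01 (interval -0.46 to 0.48, limma adjusted p = 0.999). It was -0.13 without KO 3, -0.09 without WT 3 and -0.005 without KO 1. Pfkp, the platelet type, had 3 probes, all near the detection floor. ILMN_2517973 was detected on 3 WT and 2 KO arrays, at 5.97, 5.92 and 6.48 on the WT arrays, against 6.35, 6.16 and 5.24 in KO. The low array was KO 3, where its detection p was 0.655. The Pfkp difference was -0.21 (interval -1.03 to 0.61, limma adjusted p = 0.989), and it was 0.13 without KO 3. Of the other Pfkp probes, ILMN_1237695 was detected on KO 1 only and ILMN_2673233 on 0 of 6 arrays, and neither was tested. For a signal this dim the interval bounds the signal and not the transcript, since the offset of the normalization compresses values near the floor.

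Downstream of phosphofructokinase, Aldoa encodes aldolase A, which splits the 6-carbon sugar, and Tpi1 encodes the isomerase that interconverts the resulting triose phosphates. Aldoa (ILMN_2599130) was at 10.70, 11.16 and 10.90 on the WT arrays, against 10.95, 11.03 and 11.09 in KO. The KO arrays lay inside the WT range, with a difference of 0.10 (interval -0.23 to 0.44, limma adjusted p = 0.989) that was -0.004 without WT 1. For Tpi1 the probe ILMN_1230137 was at 10.40, 10.26 and 10.37 on the WT arrays, against 10.08, 10.42 and 10.50 in KO. Here KO 1 was the lowest array and KO 3 the highest. The Tpi1 difference was -0.01 (interval -0.39 to 0.36, limma adjusted p = 0.997), and it was 0.11 without KO 1, 0.02 without WT 1 and 0.001 without WT 3. A second Tpi1 probe, ILMN_1231447, was detected on 0 of 6 arrays.

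Pgk1, on the X chromosome, encodes phosphoglycerate kinase, which makes the first ATP of the payoff phase. It was detected on every array but was dim, with raw intensities from 163 on WT 1 to 351 on KO 3. The normalized values on ILMN_2643677 were 6.64, 7.67 and 7.45 on the WT arrays, against 7.36, 7.08 and 7.98 in KO. WT 1 was lowest and KO 3 highest, and among the other 4 arrays both KO arrays lay below both WT arrays, opposite to the sign of the difference in means. The difference of 0.22 had the widest interval of the 8 genes, from -0.86 to 1.30 (limma adjusted p = 0.992), and was -0.09 without WT 1 and -0.04 without KO 3.

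Ldha, which encodes the lactate dehydrogenase subunit that favours lactate production, kept a higher KO mean without each of the 6 arrays in turn. ILMN_2603137 was at 11.43, 11.91 and 11.74 on the WT arrays, against 11.85, 11.81 and 12.04 in KO. The highest array was KO 3 and the lowest WT 1, while WT 2 lay above both other KO arrays, so the genotypes overlapped. The Ldha means were 11.69 ± 0.24 in WT and 11.90 ± 0.12 in KO (SD, n = 3 each). The difference was 0.20 (interval -0.12 to 0.53, limma unadjusted p = 0.192, adjusted p = 0.989). It ran from 0.07 without WT 1 to 0.31 without WT 2.

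**Figure D1:**
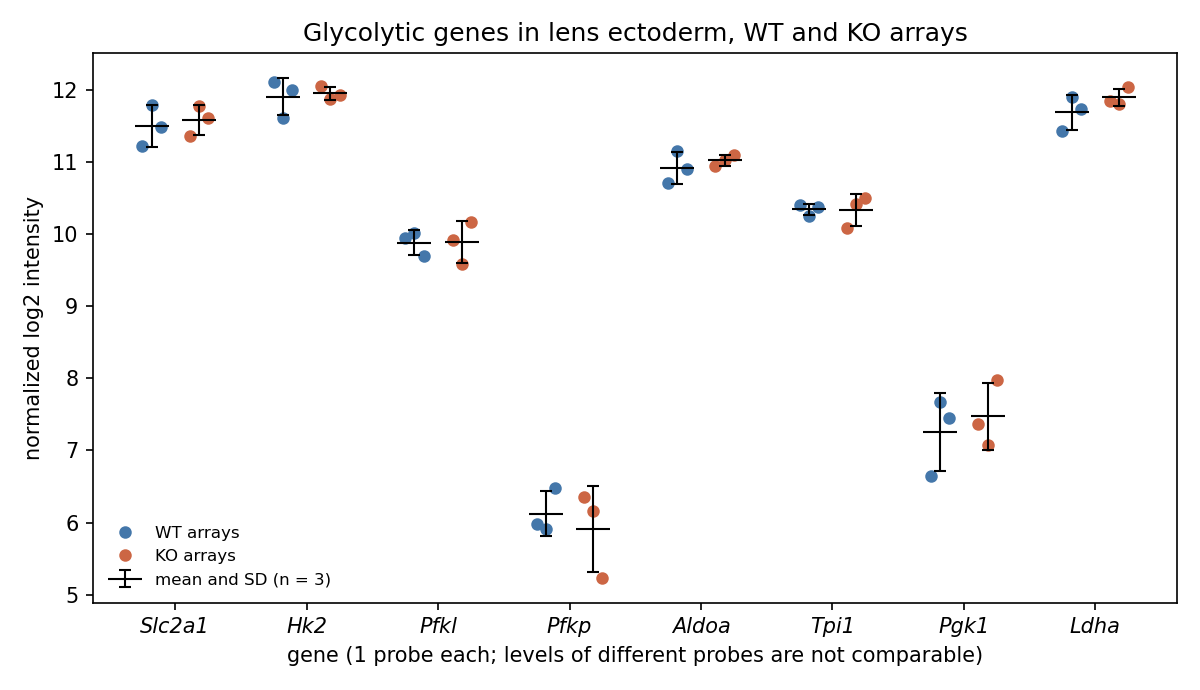
Normalized log2 intensity of the 8 tested genes on each array (points; WT blue, KO orange), with the mean and SD of 3 arrays as a black line and bar. WT and KO points overlap for every gene, and the dim probes of Pfkp and Pgk1 spread most.

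The standard error of the beads within an array had a lower median than the SD between arrays, each as a percent. Each value rested on 18 to 50 beads per probe and array. For the 7 member probes detected on all 6 arrays, the standard error of the beads was 2.80% to 10.1% of the intensity, with a median of 3.99%. The SD between arrays of one genotype, for the same 7 probes, was 5.14% to 45.8%, with a median of 16.8%. The bead error was taken on raw intensity, background included, and the SD on normalized values, so their scales differ. The bead error does not cover the amplification or labelling of the RNA. By the series text, statistics were run on bead values within arrays, whereas arrays are the replicates in all intervals given here. The median SD between arrays, pooled over the genotypes, was 0.22 for the 8 genes and 0.43 over all tested probes, on the log2 scale. It was 0.46 over the 17218 tested probes whose mean lay between those of the dimmest and the brightest member. That range takes in most of the 20959 tested probes, dim ones included. The 8 genes were therefore not compared with probes of like brightness.

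**Figure D2:**
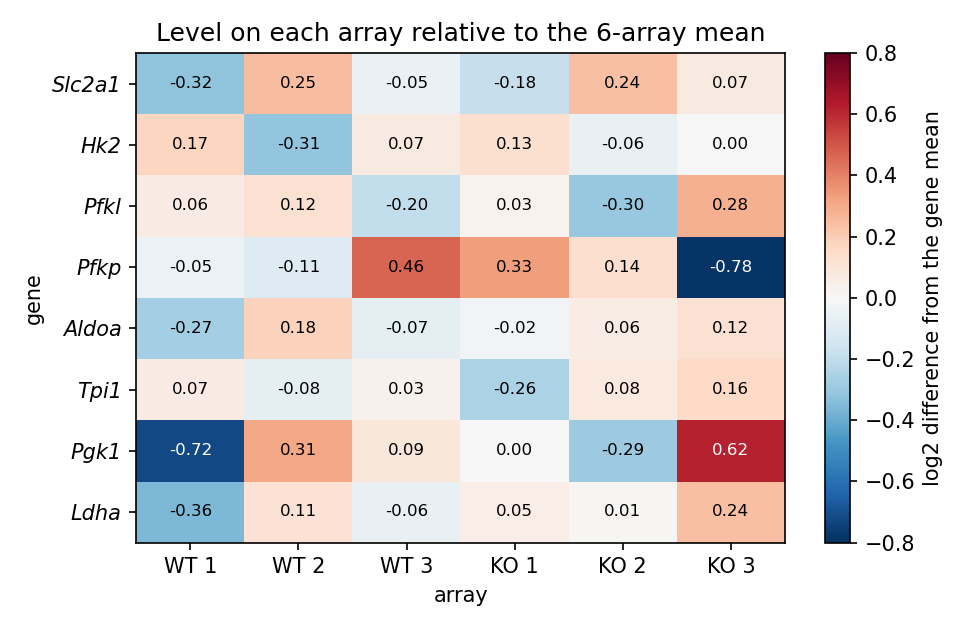
Log2 difference of each gene on each array from its own mean over the 6 arrays (rows, genes; columns, arrays; the value is printed in each cell). Slc2a1, Aldoa, Pgk1 and Ldha are lowest on WT 1, where Hk2 is highest.

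The array called WT 1 was low for several of the genes. Slc2a1, Aldoa, Pgk1 and Ldha, 4 of the 8 genes, had their lowest value on WT 1, which was the lowest array for 22.2% of all tested probes. Hk2 had its highest value there, at 0.17 above its own mean. These counts by lowest array were chosen after the values were seen. Averaged over the 8 genes, the centred level was -0.18 on WT 1 and between -0.02 and 0.09 on the other 5 arrays. The genes outside all lists whose centred profile lay nearest to this average, by root mean square difference over the 6 arrays among 7258 genes detected on every array, were Caprin1 (0.03), Srsf3 (0.04), Dnajc2 (0.04), Tsen15 (0.04) and Cox7c (0.05). They were picked as the nearest of many to a nearly flat average, which spanned 0.27 over the arrays. Single members spanned from 0.42 (Tpi1) to 1.34 (Pgk1), so no link to the glycolytic genes is read from this likeness.

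Markers of neighbouring tissue moved with some of these profiles, an order of arrays that was looked at after the values were seen. The pigment level, the mean of Pmel and Dct, was 9.85 on WT 1, 9.55 on WT 3 and 9.36 on KO 1, against 6.44 on KO 3, 5.84 on KO 2 and 5.75 on WT 2. Hk2 had its 3 highest values on the 3 arrays with the highest pigment level, as did 7.08% of all tested probes. Slc2a1 and Aldoa had their 3 lowest values on the same arrays, as did 7.02% of all tested probes. Of 6 measured lens ectoderm markers, 5 (Pax6, Sox2, Six3, Prox1 and Maf) also had their 3 lowest values there. Pmel and Dct define the pigment level and are high there by choice; of the 5 other measured optic vesicle and pigment markers, Lhx2 alone had its 3 highest values there. Of 5 measured mesenchyme and neural crest markers, Col3a1, Twist1 and Alx1 had their 3 highest there and Pdgfra its 3 lowest. Adjusted for the pigment level, the Slc2a1 difference was -0.05 and that of Hk2 was 0.15, and 0 probes of the array passed in limma, with 1492 at an unadjusted p below 0.05. The part of tissue content in these profiles was not tested.

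The mean level of each marker list, as a range over the arrays of each genotype, was as follows on the log2 scale. Lens ectoderm markers ranged from 8.77 to 10.39 in WT and from 8.55 to 10.10 in KO, with Foxe3, Pitx3 and Sox1 below the filter. Surface ectoderm markers, all 6 measured, ranged from 9.496 to 9.527 in WT and from 9.75 to 9.88 in KO. The list mean of every KO array thus lay above that of every WT array. By brightest probe 6 of 6 genes had the higher mean in KO, against 50.9% of all tested probes, but each overlapped between the genotypes. The narrow WT range averages unlike profiles, with Trp63 at 10.24, 7.78 and 9.74 and Tfap2a at 9.34, 10.67 and 9.26 on WT 1 to WT 3. The part of surface ectoderm content was not tested. Optic vesicle and pigment markers ranged from 5.997 to 8.45 in WT and from 6.48 to 7.75 in KO, with Tyr and Tyrp1 below the filter. Mesenchyme and neural crest markers ranged from 7.58 to 8.70 and from 7.53 to 8.45, and Col1a1 and Foxc1 were below the filter. Blood markers, 6 measured, ranged from 8.66 to 9.97 in WT and from 8.28 to 9.44 in KO. Among them Klf1 was detected on 3 WT and 0 KO arrays, so it passed the filter only through WT. No size of difference is therefore read from the blood list. The embryonic globin gene Hbb-bh1 was bright on every array, from 11.47 on WT 3 to 12.28 on WT 1. Endothelial markers, 4 measured, ranged from 6.45 to 7.57 in WT and from 6.41 to 7.74 in KO. Lens markers such as Pax6 were thus read on arrays that also carried globin RNA, and the part of blood in the results was not tested.

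Isozymes and other steps of the pathway were listed as 28 genes, of which 24 had a named probe and 16 passed the filter. Of these 16, 4 had a higher and 12 a lower mean in KO, while 50.9% of all tested probes had the higher mean in KO. The median difference was -0.14, and 0 passed the adjusted threshold. At an unadjusted p below 0.05 there was 1 of 16, and 1 of 16 did not overlap between the genotypes, against the 9.82% given above. Forms known from testis or liver were among the 8 genes with a probe that were not measured. Ldhc and Pgk2 (both known from testis) and Slc2a2 (the transporter of liver and pancreatic islets) were detected on 0 of 6 arrays by every probe they had. Slc2a4, Hkdc1, Gapdhs, Bpgm and Pklr were below the filter as well.

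The 1 gene without overlap was Pfkfb2, which encodes a bifunctional enzyme that sets the level of an activator of phosphofructokinase. On ILMN_1253966 it was at 9.38, 9.40 and 9.35 on the WT arrays, against 8.71, 8.91 and 8.39 in KO. All KO arrays lay below all WT arrays, with a difference of -0.71 (interval -1.23 to -0.18, limma unadjusted p = 0.0146, adjusted p = 0.989). A second Pfkfb2 probe, ILMN_1244298, gave 0.58 with an interval from -0.58 to 1.74, so the probes differed in sign. Pfkfb3 and Pfkfb4, of the same family, had -0.41 (interval -1.39 to 0.57) and -0.02 (-1.07 to 1.04).

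Slc2a3, which encodes the high-affinity transporter GLUT3, was at 11.35, 9.98 and 11.59 on the WT arrays, against 11.40, 9.87 and 9.68 in KO. It was high on WT 1, WT 3 and KO 1, the 3 arrays with the highest pigment level, and low on the other 3. The difference was -0.66 (interval -1.85 to 0.53, limma adjusted p = 0.989). Adjusted for the pigment level it was -0.17, and it was -1.16 without WT 2 and -1.20 without KO 1.

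**Figure D3:**
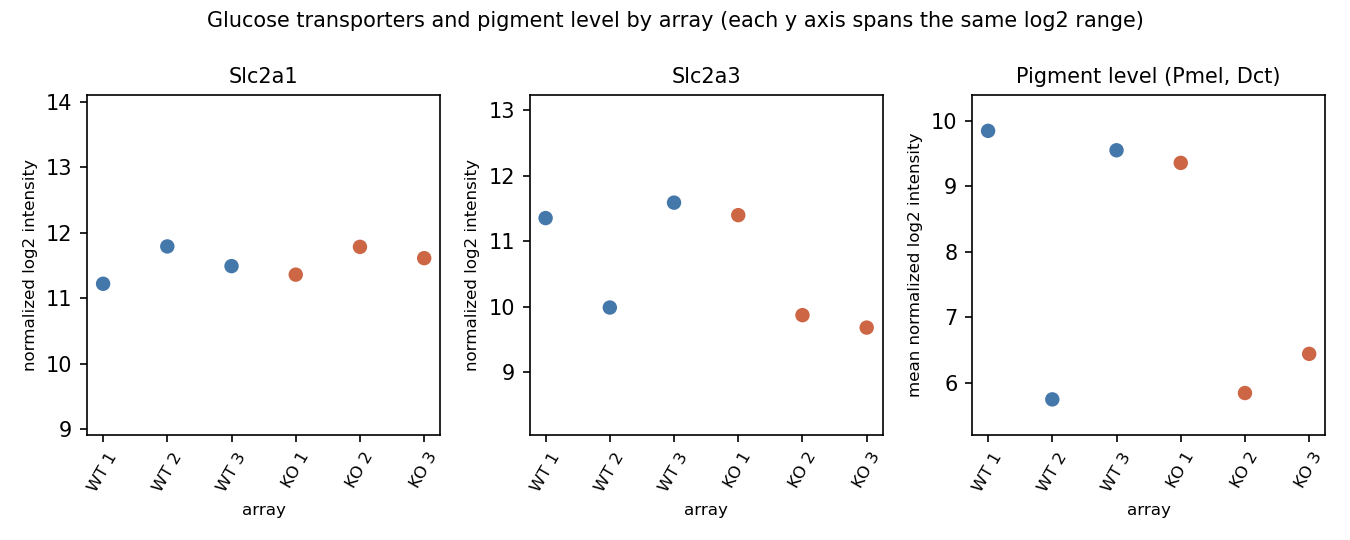
Normalized log2 intensity of Slc2a1 and Slc2a3 and the pigment level (mean of Pmel and Dct) on each array (WT blue, KO orange), with y axes of equal span. Slc2a3 is high on the 3 arrays where the pigment level is high, and Slc2a1 varies little.

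Among the other steps, Gapdh, the glyceraldehyde phosphate dehydrogenase, had the narrowest interval. Its brightest probe was at 12.35, 12.50 and 12.25 on the WT arrays, against 12.15, 12.38 and 12.24 in KO, a difference of -0.11 (interval -0.36 to 0.14, limma adjusted p = 0.989). The other Gapdh probes gave -0.06 and -0.02. Pkm, which encodes the pyruvate kinase of most embryonic tissues, had 0.17 (interval -0.26 to 0.59), and 0.45 on its second probe. Its value was -0.04 without WT 1.

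Eno3, the muscle enolase, had the highest difference of the list at 0.84 (interval -0.37 to 2.06), with WT 1 at 6.60 and the other 5 arrays between 8.36 and 8.92. Without WT 1 the Eno3 value was 0.20. Eno2, the neuronal enolase, had 0.40 (interval -0.29 to 1.09), and it was detected on 1 WT and 2 KO arrays. Pgam2, the muscle phosphoglycerate mutase, had -0.75 (interval -2.22 to 0.71), and WT 1, at 8.16, was above every other array. Without WT 1 the Pgam2 value was 0.04.

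Ldhb, the lactate dehydrogenase subunit of oxidative tissue, had -0.18 (interval -0.68 to 0.33), which was -0.0009 without KO 2 and -0.004 without WT 3. The hexokinases Hk1 and Hk3 had -0.04 (interval -1.21 to 1.12) and -0.22 (-0.71 to 0.27). A second Hk1 probe had the lower mean in KO. That probe was detected on 3 WT and 1 KO arrays, so no size of difference is read from it. Pfkm, the muscle phosphofructokinase, was detected on all 6 arrays by ILMN_2628892 and had -0.20 (interval -1.09 to 0.68). Aldoc, the aldolase of brain, had -0.02 (interval -0.58 to 0.55) and was detected on 1 WT and 2 KO arrays. The lactate carriers Slc16a1 and Slc16a3 had 0.07 (interval -0.63 to 0.77) and -0.17 (-0.91 to 0.56). Aldoa, Gapdh, Ldha, Pgk1 and Tpi1 have many processed pseudogenes, and whether a probe also reads such a copy was not tested.

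**Figure D4:**
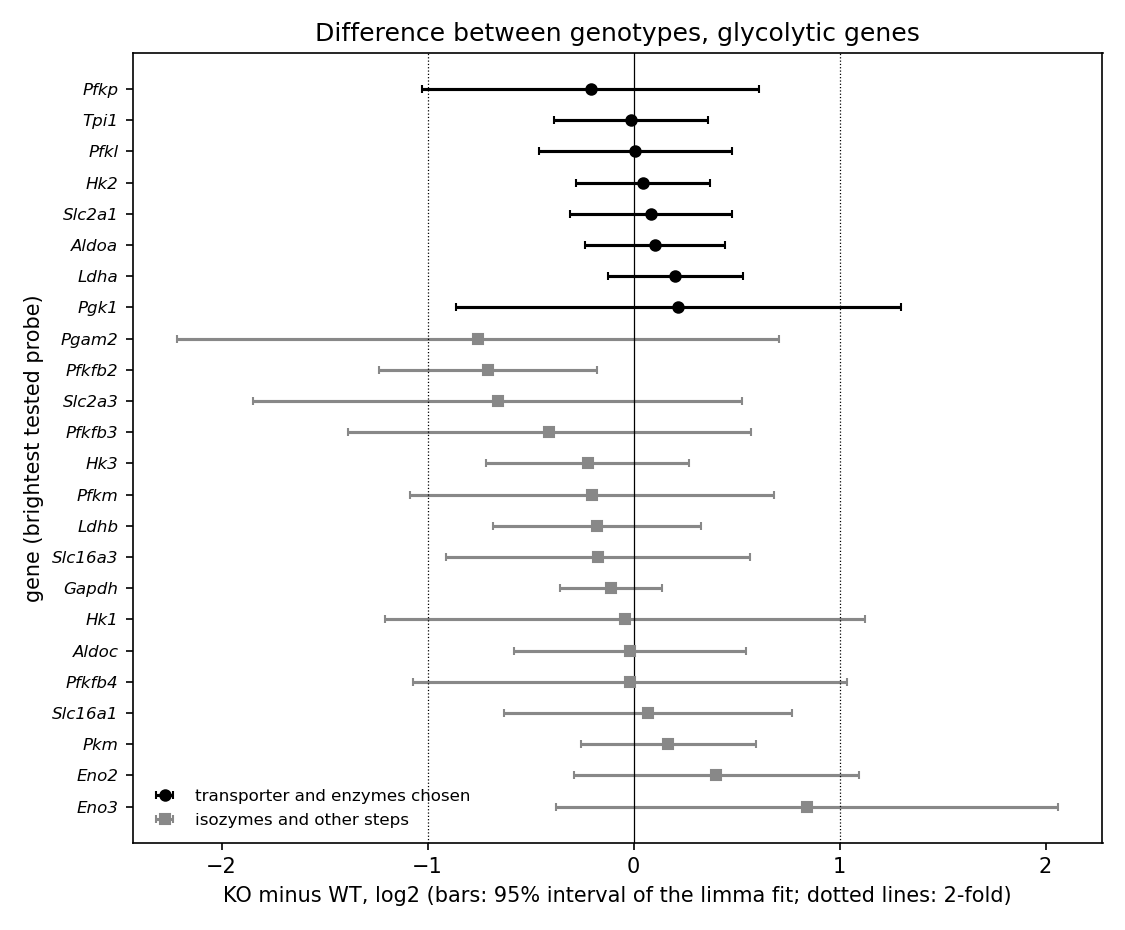
KO minus WT on the log2 scale for the 8 genes (black circles) and for 16 isozymes and other steps (grey squares), with 95% intervals of the limma fit and dotted lines at a 2-fold change. The intervals of 6 black and 7 grey points lie within the dotted lines, and that of Pfkfb2 lies wholly below 0. Of those grey points, Aldoc, Hk3 and Slc16a1 were detected on 3 of 6 arrays and Slc16a3 was dim. Near the floor an interval bounds the signal and not the transcript.

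Isozyme use was compared as the log2 ratio of the brightest probes of each pair within an array. Probes differ in response, so only the change of a ratio is read. Of 8 pairs listed, 7 could be tested, Eno1 having no probe, and the smallest p that 3 arrays against 3 allow is 0.1. The ratio of Slc2a1 to Slc2a3 was 0.75 higher in KO (exact permutation p = 0.2 two-sided, 0.933 adjusted over 7 pairs), with an SD of 1.11 in WT and 1.13 in KO. Its value was 0.13 after adjustment for the pigment level, 1.39 without WT 2, 1.40 without KO 1 and between 0.41 and 0.43 without each of the other arrays. The ratio of Ldha to Ldhb was 0.38 higher in KO (exact permutation p = 0.3, adjusted 0.933), with WT at -0.28, 0.21 and -0.49 and KO at -0.03, 0.46 and 0.14 around the mean of the 6 arrays. That ratio was positive without each array in turn, from 0.23 to 0.58.

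Within phosphofructokinase the ratio changed by 0.22 for Pfkl to Pfkp (exact permutation p = 0.8), by 0.21 for Pfkl to Pfkm (exact permutation p = 0.6) and by -0.01 for Pfkp to Pfkm (exact permutation p = 1). Hk2 to Hk1 changed by 0.09 (exact permutation p = 0.8) and Aldoa to Aldoc by 0.12 (exact permutation p = 0.4). Each of these 5 pairs had an adjusted p of 0.933 or 1, and each changed sign without at least 1 array. The pairs of 1 enzyme share a probe, so the 3 phosphofructokinase values are not independent.

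**Figure D5:**
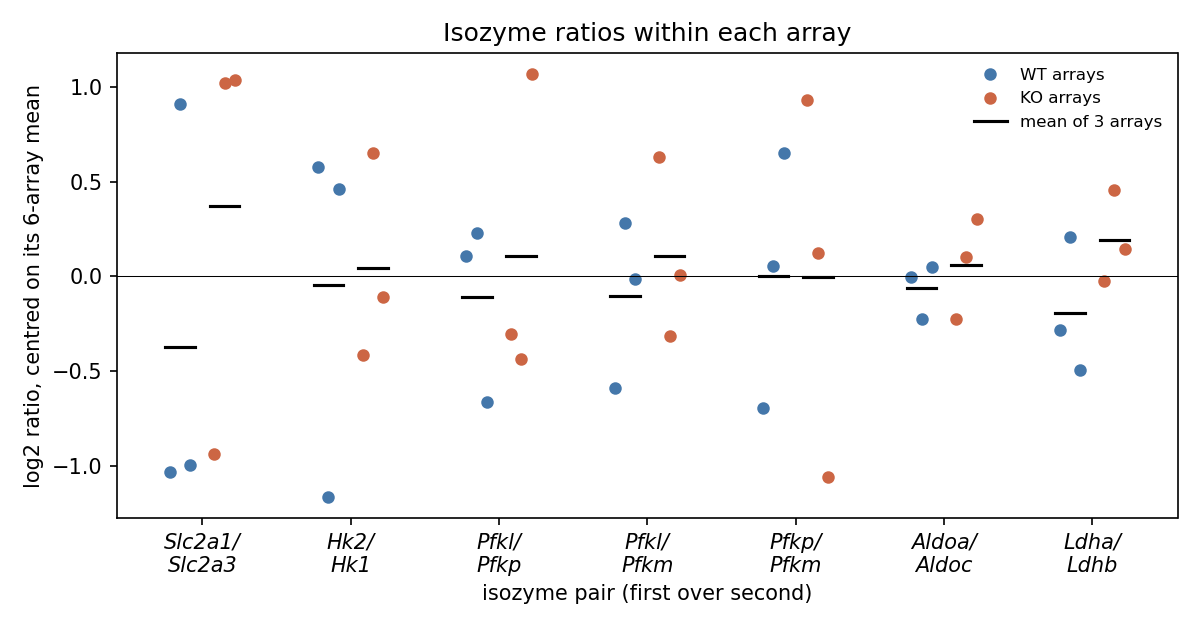
Log2 ratio of 2 isozyme probes within each array, centred on its mean over the 6 arrays (points; WT blue, KO orange; black lines, means of 3 arrays). WT and KO points overlap in all 7 pairs.

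Pathways that border glycolysis gave like results, with 0 genes past the adjusted threshold in each list. For pyruvate dehydrogenase and its regulators, 5 of 9 measured genes had a higher mean in KO, and the median difference was 0.03, turning to -0.09 without WT 1 and -0.08 without KO 1. The kinases that switch the complex off went both ways, with Pdk3 at 0.77 (interval -0.16 to 1.69, KO arrays all above WT) and Pdk2 at -0.76 (-1.74 to 0.22). Pdk1 had 0.03 (-0.60 to 0.65). A second Pdk1 probe was detected on 1 WT and 3 KO arrays, so no size of difference is read from it. Of the 9 genes, 2 (Pdk3 and Pdp1) had all KO arrays above all WT arrays, against 5.38% of all tested probes. In the pentose phosphate pathway 2 of 5 were higher, with a median of -0.11. Rpe, the ribulose phosphate epimerase, was at 6.21, 5.32 and 5.50 on the WT arrays, against 7.24, 6.55 and 6.43 in KO, with all KO arrays above all WT arrays. The Rpe probe was detected on 1 WT and 3 KO arrays, so it passed the filter through the group where it was high, 2 WT values are at background, and no size of difference is read from it (limma adjusted p = 0.989). Pgls, the lactonase of the same branch, had -0.18 (interval -0.84 to 0.49) on its brightest probe. Its other probes, also detected on all 6 arrays, gave -1.23 (interval -2.71 to 0.25) and 0.12 (-0.76 to 1.01), so the probes differed in sign. Of 3 measured gluconeogenesis genes, 0 were higher, with a median of -0.18 that was 0.21 without WT 1, -0.40 without KO 1 and 0.14 after adjustment for the pigment level. G6pc3 and Fbp1, both phosphatases, had -0.40 (interval -2.55 to 1.74) and -0.18 (-0.88 to 0.52). A second G6pc3 probe had the higher mean in KO. That probe was detected on 1 WT and 3 KO arrays, so no size of difference is read from it.

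Regulators of the pathway were read from 2 further lists. Of 15 measured genes of the HIF pathway and its targets outside glycolysis, 12 had a higher mean in KO, against 50.9% of all tested probes, with a median of 0.09. An interval within a 2-fold change was found for 11, against 40.7% of all tested probes. The 1 gene without overlap, Mxi1, had all KO arrays below all WT arrays, at -0.14 (interval -0.60 to 0.33). Hif1a, the oxygen-regulated subunit, was lowest on WT 1 at 8.36 and between 8.96 and 9.20 on the other 5 arrays, and Egln1, Ddit4 and P4ha1 were lowest on WT 1 too. That makes 4 of 15, against the 22.2% given above. The Hif1a probes disagreed, the brightest giving 0.27 (interval -0.35 to 0.89) and the others 0.08 (detected on 1 WT and 3 KO arrays) and -0.48 (interval -1.29 to 0.33). On the Hif1a probe at -0.48 all KO arrays lay below all WT arrays. Egln2, a prolyl hydroxylase that marks HIF for removal, had 0.70 (interval -0.72 to 2.12), which was 0.23 without WT 2 and 1.27 without WT 3. Ddit4, a stress-induced inhibitor of mTOR signalling, had 0.31 (interval -0.20 to 0.81), which was 0.13 without WT 1 and 0.53 without WT 2. Of 5 measured upstream regulators 1 was higher, with a median of -0.12 that was 0.07 without WT 3 and -0.36 without WT 2. Tigar, a phosphatase that lowers glycolytic flux, was at 9.63, 9.499 and 10.33 on the WT arrays, against 9.22, 9.32 and 8.99 in KO. All KO arrays of Tigar lay below all WT arrays, as they did for 4.44% of all tested probes. The Tigar difference was -0.64 (interval -1.23 to -0.05, limma unadjusted p = 0.0356, adjusted p = 0.989). A second Tigar probe, ILMN_1260001, overlapped between the genotypes and was detected on 2 WT and 2 KO arrays. That probe gave -0.85 (interval -2.39 to 0.69), with WT 2, at 8.37, above every other array. Txnip, an inhibitor of glucose uptake, had -0.23 (interval -1.52 to 1.06).

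Over the whole array, between 39.6% and 45.7% of the probes were detected per array, and 0 of 20959 passed the adjusted threshold in limma, with 941 at an unadjusted p below 0.05. Neither deleted gene passed: Acvr1, which encodes ALK2, had -0.74 (interval -2.12 to 0.64), which was -0.20 without WT 2, and Bmpr1a, which encodes ALK3, had 0.12 (-0.39 to 0.63) and -0.09 (-0.62 to 0.45) on its probes. The labels do not say where those probes lie relative to the deleted exons, so they do not check the genotype labels.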

How the data were processed

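Lens ectoderm RNA of 3 WT and 3 KO samples was measured on 1 array each of an Illumina BeadChip; per the labels' protocols, 15 ng of RNA from sections of 10 microns was amplified to cDNA and labelled with biotin. Per the file headers, the deposited table gives for each probe and array a mean bead intensity, a count of beads, a bead standard error (a signal on the linear scale) and a detection p-value. The submitters' processing notes name GenomeStudio. A further deposited table holds processed linear intensity, some of it negative. Each array's ranks matched those of its raw intensities (Spearman's rho 1), with medians of 18.53 (WT 1), 18.54 (WT 2), 18.54 (WT 3), 18.53 (KO 1), 18.51 (KO 2) and 18.54 (KO 3), so the direction is that of the intensity. Its scaling and background method stay unknown.

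Intensities were normalized with neqc (controls taken from the detection p-value steps, offset 16, quantile, log2) in limma 3.58.1 under R 4.3.3. Probes with a detection p below 0.05 on at least 3 arrays were fitted with lmFit and eBayes with a variance trend, KO minus WT, two-sided, with Benjamini-Hochberg adjustment over all tested probes. Isozyme ratios were tested by exact permutation. A gene stands for its brightest tested probe. The fit was tested on simulated data. Probe names came from the platform annotation, in which 29976 probes had 1 symbol, 10 had several and 16646 had none; 29921 of the named probes matched the current gene table and 0 symbols changed. The number of arrays limits the precision.

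The text names every probe of the chosen genes, every measured isozyme, of each bordering list the 2 genes with the highest absolute difference, the deleted genes, and the 5 genes outside all lists with the nearest profile. Genes, lists and tests were chosen with earlier results of these data known. The replicate numbers were checked as pairs: deviations from the group means correlated by 0.11 for number 1, 0.14 for number 2 and -0.01 for number 3. Arrays with unlike numbers gave values from -0.19 to 0.13. With 3 arrays per genotype these values cannot decide whether the numbers pair the samples, and the labels do not state a pairing. Alternatives were the deposited processed values, no background correction, an offset of 50, other detection filters, array weights, no variance trend, the replicate block, pigment level as a covariate, the mean of all tested probes of a gene, and leaving out each array.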

Additional observations from a re-analysis of the deposited data

How the results depend on the processing

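The number of probes past the adjusted threshold was 0 under every alternative run, and the lowest adjusted p lay between 0.258 without WT 2 and 1 without KO 2 or KO 3. The replicate block also gave 0 such probes, with 986 at an unadjusted p below 0.05, and changed no call. That unadjusted number was 941 in the reported fit, 617 with probes detected on all 6 arrays, 1961 with no detection filter, 1492 after adjustment for pigment and between 579 and 1485 without 1 array. The median over the 8 genes stayed between 0.006 and 0.15 under all alternatives. Adjusted for pigment, the list medians were 0.18 for pyruvate dehydrogenase, 0.14 for gluconeogenesis and 0.07 for upstream regulators, and with array weights that of pyruvate dehydrogenase was -0.07. Without 1 array these medians ran from -0.09 to 0.21, -0.40 to 0.21 and -0.36 to 0.07. Differences, KO minus WT in log2, of single genes and ratios that changed sign are given by alternative. Without background correction these were Aldoc 0.0090, Pfkfb4 0.011. With the deposited processed values these were Aldoc 0.018, Pfkfb4 0.011. Adjusted for pigment these were G6pc3 0.31, Pfkfb4 0.17, Pfkl -0.0054, Pfkp to Pfkm 0.14, Pgls 0.054, Slc2a1 -0.046, Txnip 0.075. With array weights these were Hk1 0.090, Hk2 -0.015, Hk2 to Hk1 -0.10, Pfkfb4 0.044, Tpi1 0.026. With an offset of 50 these were Pfkfb4 0.0027, Pfkp to Pfkm 0.059. Without 1 array the ranges of those that changed sign were Aldoa -0.0037 to 0.22, Aldoc -0.15 to 0.18, Bmpr1a -0.081 to 0.26, Fbp1 -0.38 to 0.0052, G6pc3 -1.61 to 0.41, Hk1 -0.32 to 0.37, Hk2 -0.10 to 0.14, Pfkfb4 -0.28 to 0.46, Pfkl -0.13 to 0.16, Pfkm -0.39 to 0.071, Pfkp -0.43 to 0.13, Pgam2 -1.34 to 0.045, Pgk1 -0.090 to 0.43, Pgls -0.47 to 0.029, Pkm -0.038 to 0.33, Slc16a1 -0.11 to 0.34, Slc16a3 -0.31 to 0.012, Slc2a1 -0.055 to 0.23, Tpi1 -0.096 to 0.11, Txnip -0.77 to 0.24. For the isozyme ratios the ranges were Aldoa to Aldoc -0.0016 to 0.26, Hk2 to Hk1 -0.47 to 0.40, Pfkl to Pfkm -0.049 to 0.42, Pfkl to Pfkp -0.26 to 0.49, Pfkp to Pfkm -0.47 to 0.52. Among those that kept their sign, Acvr1 ran from -1.24 to -0.20, Egln2 from 0.23 to 1.27 (0.27 with array weights), Ddit4 from 0.13 to 0.53, Eno2 from 0.21 to 0.69, Hk3 from -0.35 to -0.10, Pfkfb3 from -0.57 to -0.19, Tigar from -0.80 to -0.39, Pdk2 from -1.15 to -0.47 and Ldhb from -0.27 to -0.0009. The cause of these changes was not tested. A signal near the detection floor limits Pfkp, Aldoc, Eno2, Hk3 and Slc16a1, among others.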
